A study of Mus musculus with 9 samples.

Results

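The antiviral interferon-stimulated genes are 43 genes that cells switch on when interferon reaches them, among them the Oas, Ifit, Mx and Isg15 genes. They were taken by name from a table of 54146 genes, all 43 were found, and all 43 passed a filter on low values that kept 14410 genes, those reaching a normalized count of 10 in 4 or more mice. Their RNA was measured in the colonic mucosa of 9 C57BL/6J mice aged 15 wk. Of these, 5 were ApcMin/+, with 2 females among them, and 4 were ApcMin/+; p16cis/cis, with 3 females, and the latter are called p16cis/cis mice below. All 9 mice carry the ApcMin mutation, a germline truncating mutation of Apc that starts intestinal adenomas, so no mouse without it was compared. The p16cis allele is a knock-in of a short cis-element that draws DNA methylation to the promoter of p16 (Cdkn2a). It is present in every cell of the animal, so a difference between the genotypes need not arise in the epithelium. According to the study's methods, the RNA came from colonic crypts, the epithelial pits of the mucosa, so immune and stromal cells are present only as far as they stayed attached.

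Interferon receptors act through JAK kinases, JAK1 and TYK2 for type I and type III interferons and JAK1 and JAK2 for interferon gamma. Type I and type III interferons assemble a complex that holds STAT2 and IRF9 and binds the interferon-stimulated response element (ISRE) in promoters, and interferon gamma acts at the gamma-activated site (GAS). The induced proteins recognize viral RNA, degrade it, stop translation, tag proteins with ISG15 or hold virus particles at the cell surface. In the gut, epithelial cells respond to type III interferon in particular, and a resting level of these genes is known to be kept up by signals from the microbiota.

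The promoter letters that carry this response are shown first. RefSeq promoters of GRCm38.p6, each running from 250 bases before to 50 after a gene's start, were at hand for 28 of the 43 genes (32 promoters), with no entry for the other 15. A match to the core of the ISRE, GAAANNGAAA on either strand, was present in 14 of these 28 genes (50%), against 3.44% of all 32851 promoters and 3.99% of all 27025 genes in the same table. The GAS letters TTCNNNGAA, which read the same on both strands, were present in 5 of 28 (17.9%), against 8.30% of all promoters and 9.55% of all genes. Of the 24 ISRE matches in promoters of the 43 genes, 1 overlapped a GAS match, in Bst2. In 11 of the 14 genes a match lay before the start. The matches below, with 10 bases on each side, are shown because the ISRE is the element through which interferon is known to act. Capitals mark the matched letters, all sequences are written on the gene's own strand, and TTTC in capitals is a match on the opposite strand.
Isg15 (chr4:156200865-156200906, minus strand): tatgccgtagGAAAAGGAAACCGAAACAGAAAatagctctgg
Bst2 (chr8:71537577-71537612, minus strand): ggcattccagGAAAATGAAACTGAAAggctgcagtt
Ifit1 (chr19:34640775-34640823, plus strand): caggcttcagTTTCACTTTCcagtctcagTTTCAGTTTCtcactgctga
Ifit3 (chr19:34583363-34583426, plus strand): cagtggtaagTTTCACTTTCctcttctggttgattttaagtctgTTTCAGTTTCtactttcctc
Ifit3b (chr19:34607759-34607822, plus strand): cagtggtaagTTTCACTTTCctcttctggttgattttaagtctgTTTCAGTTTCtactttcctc
Oas1a (chr5:120907520-120907555, minus strand): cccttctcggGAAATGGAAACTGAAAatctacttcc
Oas1g (chr5:120887606-120887641, minus strand): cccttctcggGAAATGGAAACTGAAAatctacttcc
Oas3 (chr5:120777715-120777744, minus strand): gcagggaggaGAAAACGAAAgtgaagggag
Rsad2 (chr12:26456553-26456582, minus strand): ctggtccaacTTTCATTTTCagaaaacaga

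Isg15 held 3 overlapping matches, of which the first began 78 bases before the start. Bst2 held 2 that overlap, from 130 bases before the start, and the Oas1a and Oas1g stretches were identical in these windows, as were those of Ifit3 and Ifit3b. Oasl2, whose level ranged over the mice more than that of most of the others, had no match in its window. Its 250 bases before the start (GRCm38.p6, chr5:114896684-114896933, plus strand) are shown for comparison with the matched promoters.
Oasl2: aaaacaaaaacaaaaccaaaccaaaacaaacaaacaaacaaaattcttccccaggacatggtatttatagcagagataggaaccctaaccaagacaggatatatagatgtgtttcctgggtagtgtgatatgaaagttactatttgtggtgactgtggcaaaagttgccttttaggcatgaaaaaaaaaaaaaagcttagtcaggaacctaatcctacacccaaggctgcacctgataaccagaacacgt

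A match is a description of letters and not of a bound site. The 14 genes with an ISRE match had a median SD over the 9 mice of 1.03 on the log2 scale (range 0.36 to 1.75), and the 14 with no match in their window one of 0.58 (range 0.21 to 1.81). The ranges overlapped almost entirely.

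The libraries held 15745098 to 17885918 reads on genes in ApcMin/+ mice and 13523500 to 14900228 in p16cis/cis mice. Mitochondrial genes took 8.74% to 15.6% of the reads in ApcMin/+ mice and 19.3% to 29.8% in p16cis/cis mice, and the genotypes did not overlap, so genotype and this share cannot be told apart. The epithelial markers Epcam, Cdh1, Krt8, Krt18, Krt20, Vil1, Car1 and Slc26a3 were abundant in every mouse. In the 43 genes, 2 mice stood apart. ApcMin/+ replicate 4 had the lowest normalized count of all 9 mice in 35 of the 43 genes, where 16.9% of all genes tested were lowest in that mouse. Replicate 3 of the p16cis/cis mice had the highest in 35 of the 43, where 13.2% of all genes tested were highest in it. For the genes described mouse by mouse, a fold that moved by over 1.5 times without 1 or both of these mice is given both ways. The mice were singled out on these same genes, as the lowest of ApcMin/+ and the highest of p16cis/cis mice (below, the end mice), so leaving them out lowers the folds by the choice itself, and values without them are a description.

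Values are normalized counts, that is, read counts scaled by the size factor that belongs to the mouse. Fold changes are p16cis/cis over ApcMin/+, fitted with limma on log2(normalized count + 1), with p-values adjusted by Benjamini-Hochberg over all 14410 genes and a threshold of 0.05. Of the 43 genes, 3 rose in p16cis/cis mice (Mx1, Zbp1 and Batf2), where 8.14% of all genes tested were called higher, and 0 fell, where 8.75% were called lower. The remaining 40 were not called, and 9 of the 43 had an unadjusted p under 0.05. The share of all genes under that looser rule was not counted, but 2434 of the 14410 passed the adjusted threshold. The 9 are therefore not read as more than the background. Taken as a share, the 3 of 43 were no more than among all genes tested. All 3 called members had a fold over 2, a rule that 1.83% of all genes tested met in this direction. With edgeR on the recovered reads the same 3 genes were called higher (8.08% of all genes), and with DESeq2 the 4 genes Batf2, Bst2, Oas1b and Zbp1 were (10.9% of all genes). In 2 genes, Zbp1 and Batf2, every p16cis/cis mouse was above every ApcMin/+ mouse (7.24% of all genes tested), and in 0 genes was every p16cis/cis mouse below (8.95% of all genes tested).

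Most of the 43 genes leaned upward without passing the test. The fitted log2 fold was above 0 in 35 and below 0 in 8, where 49.6% of all genes tested were above 0. Its median over the 43 was 0.54, against a median of -0.0041 over all genes tested. The sizes ran from -0.57 for Samd9l to 1.98 for Oas2, and the standard errors from 0.11 to 1.04. In 13 genes the fitted fold was over 2, and 10 of these did not pass the test. The share of all genes with such a fold, passing or not, was not counted.

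**Figure D1:**
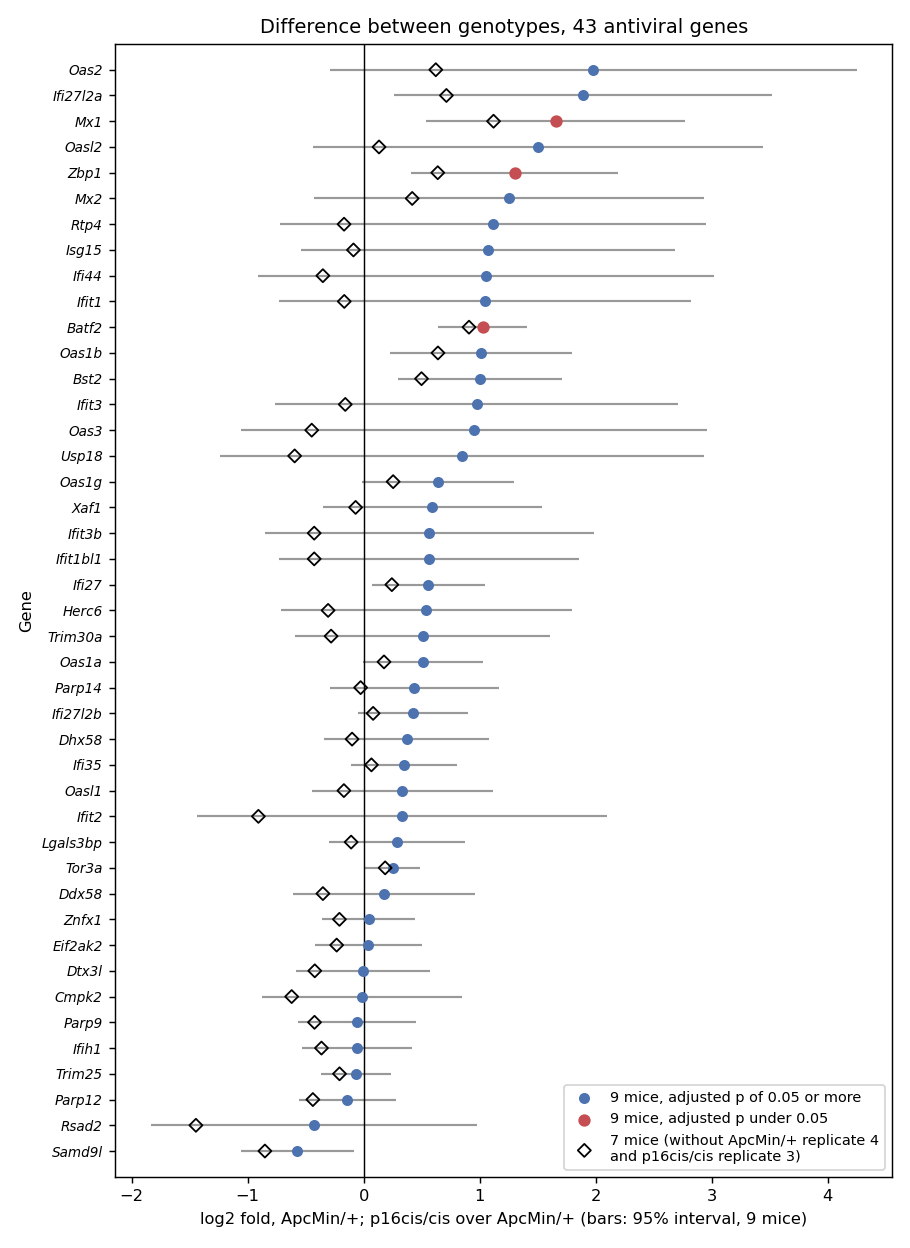
The log2 fold (p16cis/cis over ApcMin/+) of each of the 43 genes, with bars for the 95% interval over 9 mice, filled points for the fit on 9 mice (red where the adjusted p was under 0.05) and open diamonds for the fit on 7 mice. Most filled points lie right of 0 with wide bars, and most diamonds lie left of their filled points, with a median of 0.54 for the points and -0.17 for the diamonds.

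The sensors of viral RNA and of Z-form nucleic acids were 4 genes, of which 1 rose and 3 did not pass the test. Zbp1 encodes the sensor of Z-form nucleic acids that can start necroptosis (chromosome 2, 173206612 to 173218923, minus strand, GRCm38). Its normalized count was 334, 532, 461, 140 and 632 in ApcMin/+ replicates 1 to 5 and 638, 975, 1751 and 659.5 in p16cis/cis replicates 1 to 4. The groups did not overlap, but the gap between the highest ApcMin/+ mouse and the lowest p16cis/cis mouse was small. The genotypes differed by a log2 fold of 1.30 with an SE of 0.41 (adjusted p = 0.0485, limma; exact permutation test, two-sided, p = 0.0159), a fold of 2.46. Without ApcMin/+ replicate 4 and p16cis/cis replicate 3 the log2 fold was 0.64 and the adjusted p 0.0501 (limma), and without p16cis/cis replicate 3 alone the adjusted p was 0.121.

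Ifih1 encodes MDA5, the sensor of long double-stranded RNA, and was the most abundant of the 4. It read 1177, 1292, 1362, 868 and 1779 in ApcMin/+ mice and 1201, 1255, 1728 and 827 in p16cis/cis mice. The ranges lay over each other, with a log2 fold of -0.06 (SE 0.22, 95% interval -0.54 to 0.42). Ddx58 (RIG-I, the sensor of short RNA ends) and Dhx58 (LGP2, which tunes both sensors) had log2 folds of 0.17 and 0.37.

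The enzymes that double-stranded RNA activates were 8 genes, the oligoadenylate synthetases and Eif2ak2, and none passed the test, although all 8 had a log2 fold above 0 (median 0.79). The synthetases make the short messenger that turns on RNase L, and Oasl1 is a family member known to lack that activity. Oas2 had the largest fold of all 43 genes and also the largest spread. Its normalized count was 122, 364, 252, 5.08 and 420.0 in ApcMin/+ mice and 383, 909, 860 and 188 in p16cis/cis mice. The groups overlapped, and ApcMin/+ replicate 4 alone was lower than the others by more than an order of magnitude, on 4 reads. Its log2 fold of 1.98 had an SE of 1.04 (adjusted p = 0.208, limma), and without that mouse it was 0.89 (adjusted p = 0.195, limma).

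Oasl2 was the most abundant of this group by mean count. It read 1221, 1931, 1917, 73.7 and 2494 in ApcMin/+ mice and 1749, 3623, 6893 and 1278 in p16cis/cis mice. Between the lowest and the highest of the 9 mice lay a 93.5-fold range, and between the genotypes a log2 fold of 1.50 (SE 0.89, adjusted p = 0.265, limma). Without ApcMin/+ replicate 4 the log2 fold of Oasl2 was 0.58, and without both end mice 0.13. Oas3, the synthetase that responds to long RNA, had a 70.2-fold range and a log2 fold of 0.95, which was 0.050 without ApcMin/+ replicate 4 and -0.45 without both. Oas1b, the flavivirus resistance gene, whose coding sequence is known to be cut short in C57BL/6 mice, had a narrower spread and came closer to the threshold, with a log2 fold of 1.01 (SE 0.36, adjusted p = 0.0741, limma).

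Oas1a and Oas1g are neighbors on chromosome 5 and share sequence, since 57.6% of the 50-base windows of Oas1a also occur in Oas1g transcripts, so reads could be split between them in a way that is not known here. Their log2 folds were 0.51 and 0.64, with adjusted p of 0.156 and 0.160 (limma). Eif2ak2 encodes PKR, which stops translation when it meets double-stranded RNA, and varied less than most of the 43 (SD over 9 mice 0.36 on the log2 scale), with a log2 fold of 0.04 (95% interval -0.42 to 0.50).

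The 5 Ifit genes encode members of a family of RNA-binding proteins, of which Ifit1 is known to bind viral RNA ends and block translation. None passed the test, all had a log2 fold above 0, and their median SD over the 9 mice, 1.48 on the log2 scale, was the largest of the role groups. The most abundant, Ifit1bl1, read 1684, 1501, 2219, 292 and 2728 in ApcMin/+ mice and 1023, 2037, 5002 and 1529 in p16cis/cis mice. The groups overlapped, with the lowest mouse in ApcMin/+ and the highest in p16cis/cis. The log2 fold was 0.57 (SE 0.59, adjusted p = 0.546, limma), and it was 0.015 without ApcMin/+ replicate 4 and -0.43 without both end mice. Ifit1 ran from 41.9 to 1003 in ApcMin/+ mice and from 340 to 1890 in p16cis/cis mice, with a log2 fold of 1.04 (SE 0.82) that was 0.27 without ApcMin/+ replicate 4 and -0.17 without both end mice. Ifit3 and Ifit3b share 51.2% of the windows of Ifit3 and are reported as uncertain, with log2 folds of 0.97 and 0.57.

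The group that blocks virus entry, replication and release held 7 genes, of which 1 rose, 0 fell and 6 were not called. Mx1 encodes a dynamin-like GTPase that traps viral nucleocapsids (chromosome 16, 97447035 to 97462907, minus strand, GRCm38). Its normalized count was 116, 112, 110.2, 24.2 and 243 in ApcMin/+ mice and 173, 408, 338 and 374 in p16cis/cis mice. Only p16cis/cis replicate 1 lay inside the ApcMin/+ range. The fitted log2 fold was 1.65 with an SE of 0.51 (adjusted p = 0.0458, limma; exact permutation test, two-sided, p = 0.0317), a fold of 3.15. With ApcMin/+ replicate 4 and p16cis/cis replicate 3 both left out, the log2 fold was 1.12 (adjusted p = 0.0343, limma). That fit called 3637 of all genes, against 2434 over 9 mice, and the mice left out were chosen on these genes. It is therefore not read as a check on the call. Without p16cis/cis replicate 3 alone the adjusted p was 0.0859. C57BL/6 mice are known to carry a defective Mx1 allele, and a transcript count does not speak of the protein.

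Bst2 encodes tetherin, which holds budding virus particles at the cell surface. Its normalized count was 189, 328, 245, 99.1 and 228 in ApcMin/+ mice and 333, 420, 681 and 288 in p16cis/cis mice. The groups overlapped through ApcMin/+ replicate 2. Its log2 fold of 1.00 (SE 0.32) missed the threshold narrowly (adjusted p = 0.0529, limma; exact permutation test, two-sided, p = 0.0317), while DESeq2 called it (adjusted p = 0.0128).

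Samd9l, an antiviral restriction factor that also limits cell growth, was the most abundant of this group and had the most negative fold. It read 2038, 2124, 2285, 1289 and 2835 in ApcMin/+ mice and 1279, 1704, 1743 and 951 in p16cis/cis mice. With ApcMin/+ replicate 4 set aside, every p16cis/cis mouse was below every ApcMin/+ mouse. Over 9 mice the log2 fold was -0.57 (SE 0.22, adjusted p = 0.0990, limma). It was -0.74 without ApcMin/+ replicate 4 (adjusted p = 0.0136, limma), a mouse singled out as the lowest in these genes. Leaving that mouse out lowers the fold by the choice itself, and 3488 of all genes were called there, against 2434 over 9 mice. The value without it is a description and not a result.

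Rsad2 encodes viperin, which makes a chain-terminating nucleotide, and lies beside Cmpk2, whose enzyme phosphorylates pyrimidine nucleotides, with starts 12752 bases apart on chromosome 12. Rsad2 read 154, 244, 322, 28.0 and 246 in ApcMin/+ mice and 75.8, 140.4, 267 and 58.0 in p16cis/cis mice. The other 4 ApcMin/+ mice were above 3 of the 4 p16cis/cis mice, while ApcMin/+ replicate 4 was below all of them. For Rsad2 the log2 fold was -0.43 over 9 mice (SE 0.65, adjusted p = 0.680, limma), -1.04 without ApcMin/+ replicate 4 and -1.45 without both end mice. Cmpk2 had a log2 fold of -0.01, Znfx1 one of 0.04, and Mx2, which reached at most 85.7 normalized counts, one of 1.25 (SE 0.77).

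**Figure D2:**
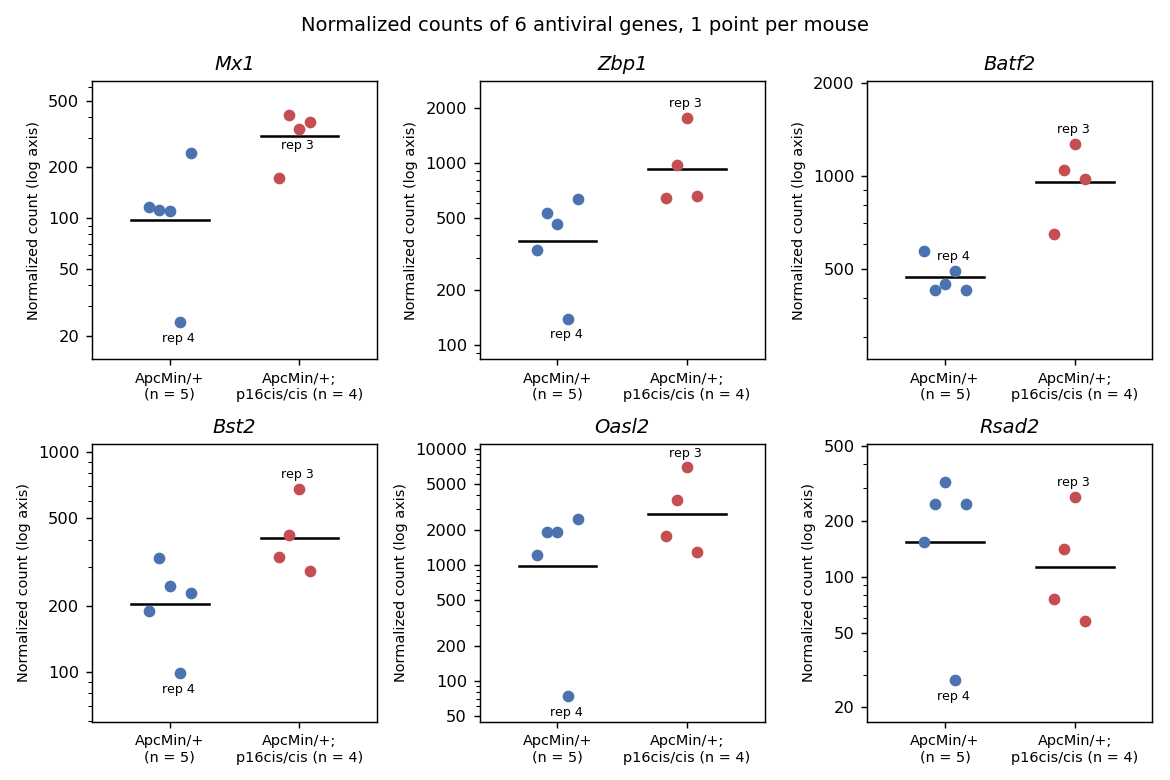
Normalized counts (log axis) of 6 genes, 1 point per mouse, for ApcMin/+ (blue, n = 5) and p16cis/cis mice (red, n = 4), with a line at each group's mean of log2(normalized count + 1). ApcMin/+ replicate 4 is the lowest point of its group for Mx1, Zbp1, Bst2, Oasl2 and Rsad2 but not for Batf2, whose groups are apart (425 to 570.2 against 647 to 1264).

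The ISG15 system and the E3 ligases were 5 genes, and none passed the test. Isg15 encodes the ubiquitin-like protein that is attached to newly made proteins. Its normalized count was 100.4, 237, 232, 21.6 and 263 in ApcMin/+ mice and 136, 402, 814 and 113 in p16cis/cis mice. In each genotype some mice had few and some many reads, and p16cis/cis replicates 1 and 4 were within the ApcMin/+ range. The 9 mice gave a log2 fold of 1.07 with a 95% interval of -0.54 to 2.68, and without ApcMin/+ replicate 4 it was 0.45 and without both end mice -0.09. Usp18, the protease that removes ISG15 and dampens the receptor, had 3 reads in ApcMin/+ replicate 4 and a log2 fold of 0.85 (SE 0.96). Herc6, the mouse ligase for ISG15, had one of 0.54, and Trim30a, a RING-finger ligase, one of 0.51.

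Trim25, the ligase that acts on RIG-I, was the most abundant of the 5 and among the steadiest of the 43 (SD over 9 mice 0.21 on the log2 scale). It read 2115, 1989, 2457, 1942 and 2957 in ApcMin/+ mice and 1988, 2158, 2594 and 1964 in p16cis/cis mice. The ranges lay over each other, and the log2 fold was -0.07 (95% interval -0.37 to 0.24).

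The PARP genes and Dtx3l were 4 genes, 3 with a log2 fold below 0, and none passed the test. PARP proteins attach ADP-ribose to other proteins, and Dtx3l is the ubiquitin ligase partner of Parp9. Parp12, the most abundant, read 1377, 1467, 1588, 1106 and 1547 in ApcMin/+ mice and 996, 1346, 1978 and 996 in p16cis/cis mice, with a log2 fold of -0.14 (SE 0.19). The extremes of both genotypes met. Parp9 and Dtx3l start toward each other on chromosome 16, their gene bodies overlap by 682 bases, and 9.40% of the exonic bases of Parp9 lie under Dtx3l, so without strand information reads there could go to either gene. Their log2 folds were -0.06 and -0.01, and that of Parp14 was 0.44 (95% interval -0.29 to 1.16).

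The 6 genes of the Ifi27 and Ifi44 type all had a log2 fold above 0, and none passed the test. Ifi27l2b, which belongs to a family of small hydrophobic membrane proteins, read 2522, 2601, 2766, 1556 and 2210.0 in ApcMin/+ mice and 2156, 3302, 4663 and 2651 in p16cis/cis mice. It was the highest of all 43 genes per length, with 2483 normalized counts per kb of exon over the 9 mice. The log2 fold was 0.42 (SE 0.22, adjusted p = 0.200, limma). Its neighbor Ifi27l2a had one of the largest folds, 1.89 (SE 0.75, adjusted p = 0.1004, limma). It read 23.4, 40.9, 45.8, 3.81 and 57.9 in ApcMin/+ mice and 48.0, 142, 316 and 42.3 in p16cis/cis mice. ApcMin/+ replicate 4 held 3 reads, and p16cis/cis replicates 1 and 4 lay within the ApcMin/+ range. Without ApcMin/+ replicate 4 the log2 fold of Ifi27l2a was 1.27, and without both end mice 0.71. Ifi27 had a log2 fold of 0.56 (exact permutation test, two-sided, p = 0.0397; adjusted p = 0.105, limma), Xaf1, a proapoptotic zinc-finger protein, one of 0.59, Ifi35 one of 0.35, and Ifi44 one of 1.05 with an SE of 0.90.

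Of the 4 other interferon-induced genes, 1 rose and 3 were not called. Batf2 encodes a basic leucine zipper transcription factor of the AP-1 family, and is not itself an antiviral effector (chromosome 19, 6140983 to 6172476, plus strand, GRCm38). Its normalized count was 570.2, 425, 447, 492 and 425 in ApcMin/+ mice and 647, 1040.0, 1264 and 978 in p16cis/cis mice. The groups did not overlap, and ApcMin/+ replicate 4 was the second highest of its group. Its log2 fold was 1.02 with an SE of 0.17 (adjusted p = 0.00490, limma; two-sided exact permutation test, p = 0.00794, the smallest value these group sizes allow), a fold of 2.03. Genotype took 78.9% of the variance of Batf2 over the 9 mice, where the median over the 43 genes was 11.4% and over all genes tested 23.9%.

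Lgals3bp, a secreted glycoprotein that binds galectin-3, was the most abundant of this group. It read 4778, 6931, 7880, 3791 and 5410 in ApcMin/+ mice and 6742, 6448, 11607 and 4230 in p16cis/cis mice, with a log2 fold of 0.29 (SE 0.27). The extremes were again ApcMin/+ replicate 4 and p16cis/cis replicate 3. Rtp4, a Golgi chaperone, ranged over 60.6-fold with a log2 fold of 1.12 (SE 0.84), and 11.6% of its windows were shared with an overlapping transcript model. Tor3a, a torsin ATPase of the endoplasmic reticulum, was the steadiest of the 43 (SD 0.19), with a log2 fold of 0.25 (SE 0.11, adjusted p = 0.133, limma; exact permutation test, two-sided, p = 0.0238).

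A wide spread between mice was the main feature of these genes. The median SD over the 9 mice, both genotypes together, was 0.77 on the log2 scale, against 0.31 over all genes tested. Of the 43 genes, 21 were above the 90th percentile of all genes (0.78). Genotype took a median of 11.4% of the variance of the 43 genes, against 23.9% over all genes tested. For each mouse the mean over the 43 genes of the deviation from the gene's 9-mouse mean was taken. It was -0.39, 0.22, 0.24, -1.84 and 0.44 in ApcMin/+ replicates 1 to 5 and -0.06, 0.56, 1.22 and -0.38 in p16cis/cis replicates 1 to 4. The group means were -0.27 ± 0.93 (SD, n = 5) and 0.33 ± 0.70 (SD, n = 4), so the groups differed by less than the pooled SD of 0.84 on this scale.

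**Figure D3:**
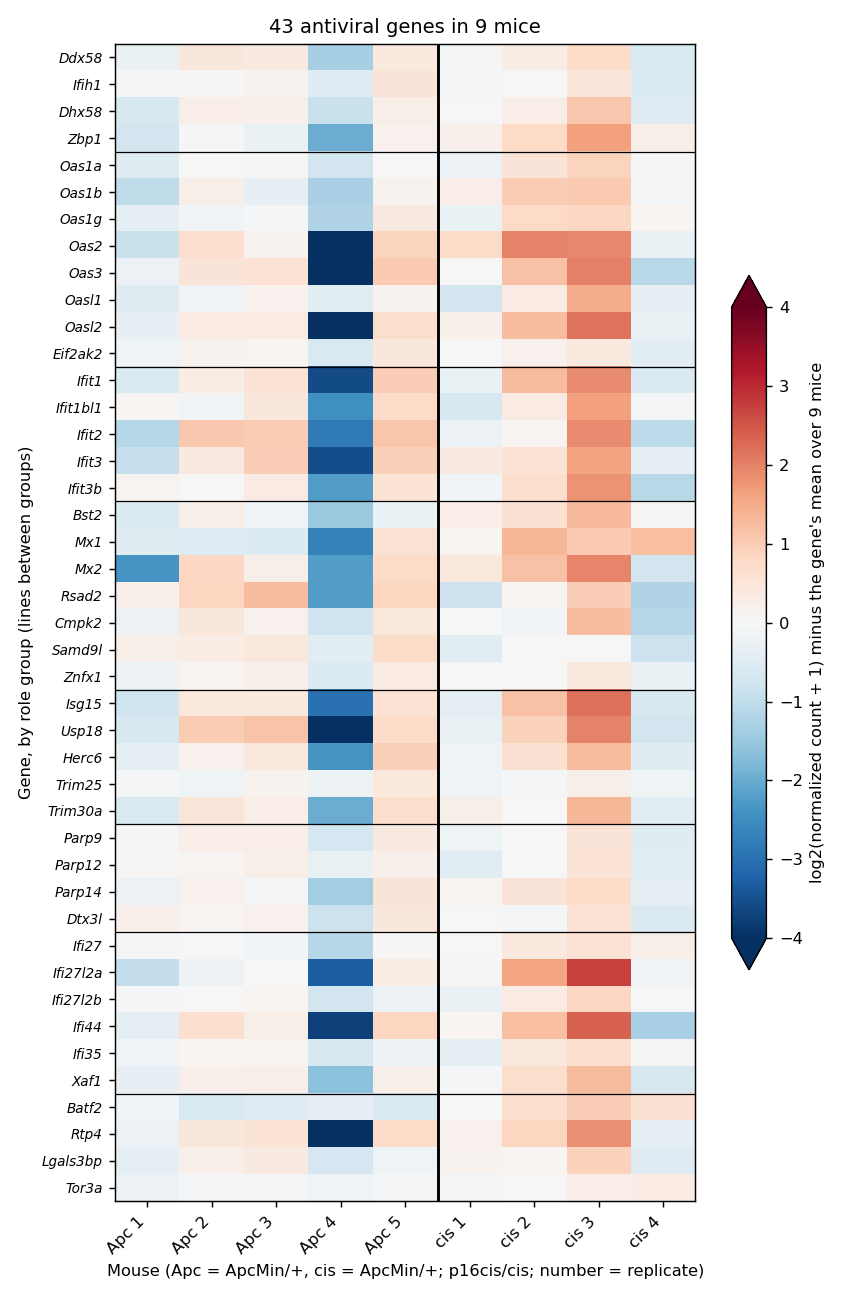
Deviation of each gene's log2(normalized count + 1) from its mean over the 9 mice (color), with the 43 genes as rows in role groups and the mice as columns (Apc, ApcMin/+ replicates 1 to 5, and cis, p16cis/cis replicates 1 to 4). The column of ApcMin/+ replicate 4 is blue through nearly all rows, 35 of them the lowest of the 9 mice, and that of p16cis/cis replicate 3 is red, 35 of them the highest.

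ApcMin/+ replicate 4 was below the other 4 ApcMin/+ mice in 39 of the 43 genes, with a median difference of -1.50 on the log2 scale. The exceptions were Oasl1, Mx2, Batf2 and Tor3a. The mean of the other 4 ApcMin/+ mice was 56.9-fold higher for Oas2 (on 4 reads in replicate 4), 25.6-fold for Oasl2, 25.2-fold for Oas3, 22.9-fold for Rtp4, 19.5-fold for Ifi44 and 16.3-fold for Ifit1, but only 1.23-fold higher for Trim25 and 1.69-fold for Eif2ak2. Replicate 3 of the p16cis/cis mice was above the other 3 p16cis/cis mice in 40 of the 43 genes, all but Oas2, Mx1 and Tor3a, with a median difference of 1.09. The largest of these differences were 2.35 for Ifi44, 2.28 for Ifit2, 2.24 for Ifi27l2a and 2.14 for Isg15. The 2 mice thus lay at opposite ends of the same genes while belonging to different genotypes, and to different sexes, male for ApcMin/+ replicate 4 and female for p16cis/cis replicate 3.

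Without these 2 mice, which were chosen with earlier results of these data known, 15 of the 43 genes had a log2 fold above 0 and 28 below, with a median of -0.17 (-0.01 over all genes tested). Batf2 and Mx1 were still called higher, where 11.9% of all genes were. The lowest folds were those of Rsad2 (-1.45), Ifit2 (-0.91) and Samd9l (-0.85). Since the choice of these mice pulls the folds down, neither the median nor the genes past the threshold downward in that fit are read as a result. The fold moved by over 1.5 times in 20 of the 43 genes without both mice, in 12 without ApcMin/+ replicate 4 and in 1 without p16cis/cis replicate 3. Leaving out any single mouse kept the median above 0, between 0.20 (without ApcMin/+ replicate 4) and 0.73.

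Summed markers of T cells, B and plasma cells, and stromal cells were lowest in ApcMin/+ replicate 4, and their part in the result was not tested. The summed normalized count of 8 T cell markers was 63.6 in ApcMin/+ replicate 4, 449 to 871 in the other ApcMin/+ mice and 263 to 432 in p16cis/cis mice. That of 6 B and plasma cell markers was 35.6 in the same mouse, 183 to 927 in the other ApcMin/+ mice and 36.0 to 188 in p16cis/cis mice. For 6 stromal and vascular markers it was 71.2, 278 to 364 and 72.1 to 156. Of the 8 epithelial markers, 6 were the highest of the ApcMin/+ group in replicate 4, Car1 by the most, at 165058 against 64999.5 to 82124 in the other 4 ApcMin/+ mice, while Epcam and Slc26a3 were not. In such bulk RNA, fewer cells of a type and less RNA per cell cannot be told apart. The p16cis/cis replicate 3, highest in the antiviral genes, had summed T cell markers of 322 and B and plasma cell markers of 188, within or at the edge of the p16cis/cis range. In p16cis/cis replicate 4 the B and plasma cell (36.0) and stromal markers (72.1) were near those of ApcMin/+ replicate 4. Its T cell markers (432) were the highest of the p16cis/cis mice, and its mean deviation in the antiviral genes was -0.38. For 8 myeloid markers the sums were 1073 to 1949 in ApcMin/+ and 1552 to 1596 in p16cis/cis mice, most of it Cd14. Of the 7 tested, 2 had a log2 fold above 0, Cd68 (0.85, adjusted p = 0.0903, limma) and Cd14 (0.38, adjusted p = 0.129, limma), and 5 one below. Adgre1 was not tested, with 1.90 to 6.70 normalized counts in ApcMin/+ and 0 in all p16cis/cis mice. Lyz2 fell (52.1 to 104 against 19.1 to 40.6, log2 fold -1.56, adjusted p = 0.00745, limma). Its groups did not overlap, where 8.95% of all genes tested were lower without overlap. Over all 6 marker lists 37 of the 41 markers were tested, and 0 rose and 4 fell between the genotypes. Over all genes tested 8.14% were called higher and 8.75% lower, so the 4 are not read as more than the background. Besides Lyz2 they were Jchain (-2.65), Col3a1 (-2.92) and Slc26a3 (-1.23). Among 5 markers of plasmacytoid dendritic cells, a major source of type I interferon, Siglech was at or near 0 (at most 2.93). Klk1 made up most of the sum, which was 18881 to 32894 in ApcMin/+ and 24543 to 31021 in p16cis/cis mice. Klk1 alone read 18571 to 32777 in ApcMin/+ mice and 24184 to 30751 in p16cis/cis mice. The epithelial marker Cdh1 was at a similar level, with 20357 to 24663 and 21018 to 26413. The sum therefore followed Klk1 and is not read as a measure of plasmacytoid dendritic cells.

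**Figure D4:**
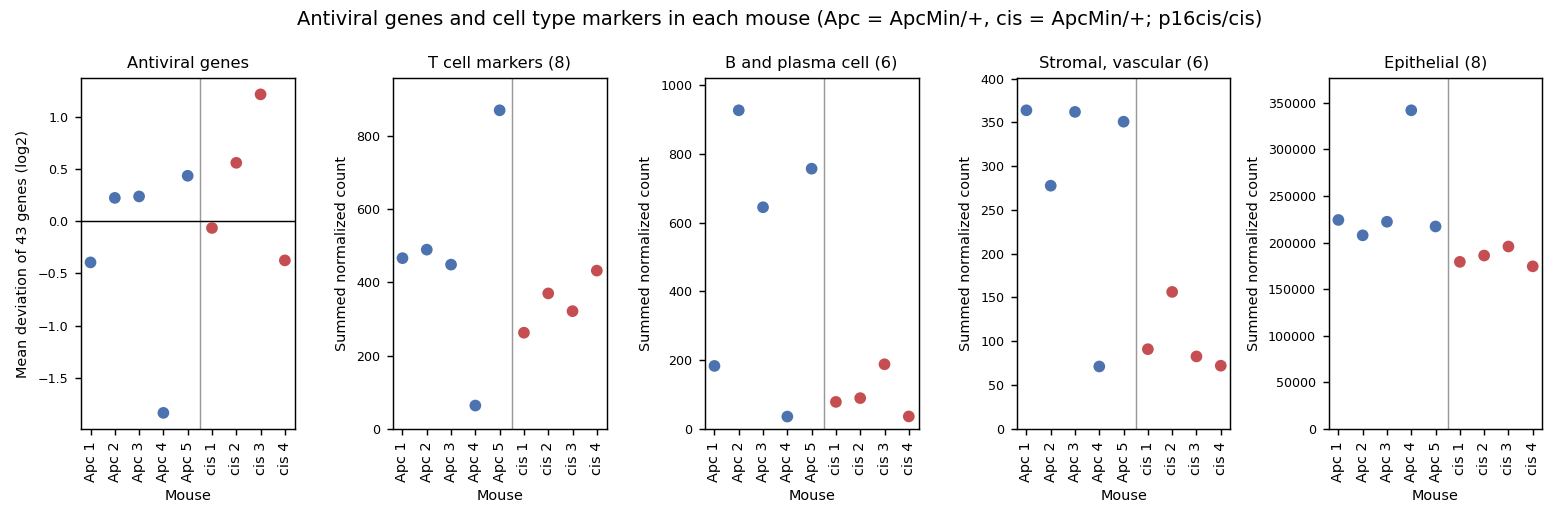
Each mouse (Apc, ApcMin/+ replicates 1 to 5, blue, and cis, p16cis/cis replicates 1 to 4, red) with the mean log2 deviation of the 43 antiviral genes at left and the summed normalized counts of 4 marker lists beside it. ApcMin/+ replicate 4 is lowest for the antiviral genes (-1.84) and for the T cell (63.6), B and plasma cell (35.6) and stromal markers (71.2). It is highest for the summed epithelial markers (342096), of which Car1 alone made up 165058. Epcam and Slc26a3 were not the highest of the ApcMin/+ group in that mouse.

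Sex was unbalanced between the genotypes. Among the females alone (2 ApcMin/+ and 3 p16cis/cis mice), the difference was above 0 in 33 of the 43 genes with a median of 0.48, and Batf2 was the 1 gene called (adjusted p = 0.0151, limma), while Mx1 had 1.14 (adjusted p = 0.0541) and Zbp1 1.18 (adjusted p = 0.0979). With sex as a covariate in all 9 mice, Batf2 again was the 1 gene of the 43 called (adjusted p = 0.0119, limma), where 1437 of all genes tested were. In neither fit was the 1 of 43 more than the share among all genes tested.

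The other genes of the pathway were 38 genes that are not among the 43, chosen by their known place in interferon production and signaling. Of these, 29 passed the filter, 2 rose (Isg20 and Ikbke), 1 fell (Tbk1) and 26 were not called, where 8.14% of all genes tested rose and 8.75% fell, so these counts were no higher than the background. The interferon genes themselves, Ifng, Ifnb1, Ifnl2, Ifnl3, Ifna1, Ifna2, Ifna4, Ifnk and Ifne, were all below the filter on low values. Ifng, the gene of interferon gamma, had 3.35, 0.951, 0.976, 0 and 4.54 normalized counts in ApcMin/+ mice and 0, 6.38, 3.01 and 0 in p16cis/cis mice, or 0 to 4 reads, so a difference was not detectable at this depth. Ifnb1, Ifnl2, Ifna1, Ifna2 and Ifna4 were listed at 0 in all 9 mice.

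The receptors and their kinases, 9 genes, were all measured and none was called, with log2 folds between -0.28 (Jak1) and 0.22 (Ifnlr1, the receptor chain for type III interferon). Among the 5 transcription factors none was called and 4 had a log2 fold above 0. Stat2, a subunit of the complex that binds the ISRE, read 690, 1011, 795, 338 and 1123 in ApcMin/+ mice and 1073, 1511, 1767 and 1048 in p16cis/cis mice. The groups overlapped, and the same 2 mice were at its ends. Its log2 fold was 0.85 (SE 0.30, adjusted p = 0.0731, limma), and without these mice it was 0.43 (adjusted p = 0.111, limma). Irf9, which encodes another subunit of that complex, had a log2 fold of 0.44 (adjusted p = 0.258, limma), and Irf7, which amplifies type I interferon, one of 0.69 (adjusted p = 0.141, limma), or 0.23 without both end mice.

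Isg20, an exonuclease that degrades single-stranded RNA and is itself induced by interferon, separated the genotypes clearly. It read 569, 523, 490, 428 and 536 in ApcMin/+ mice and 921, 1136, 1434 and 1035 in p16cis/cis mice, a log2 fold of 1.14 (SE 0.14, adjusted p = 0.00155, limma). Ikbke, the kinase that phosphorylates IRF3 and IRF7, read 1116, 983, 1068, 1145 and 1185 in ApcMin/+ mice and 1808, 1916, 1576 and 2480 in p16cis/cis mice, a log2 fold of 0.81 (adjusted p = 0.00353, limma). Tbk1, the related kinase downstream of MAVS and STING, went the other way with 754, 875, 855, 695 and 787 against 558, 603, 616 and 569, a log2 fold of -0.43 (adjusted p = 0.0162, limma). In none of these 3 genes did the genotypes overlap. All 3 were also called without the 2 mice at the ends (log2 folds 0.96, 0.92 and -0.50). That fit called more of all genes (3637 against 2434). Socs1, the feedback inhibitor of JAK kinases, was also without overlap (17.8 to 85.1 against 98.5 to 160), but its adjusted p was 0.0996 (limma). Jak1 was without overlap in the other direction (2058 to 2590 against 1665 to 1946, adjusted p = 0.0748, limma). Over all genes tested, 7.24% were higher and 8.95% lower without overlap, against 3 and 2 of these 29.

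**Figure D5:**
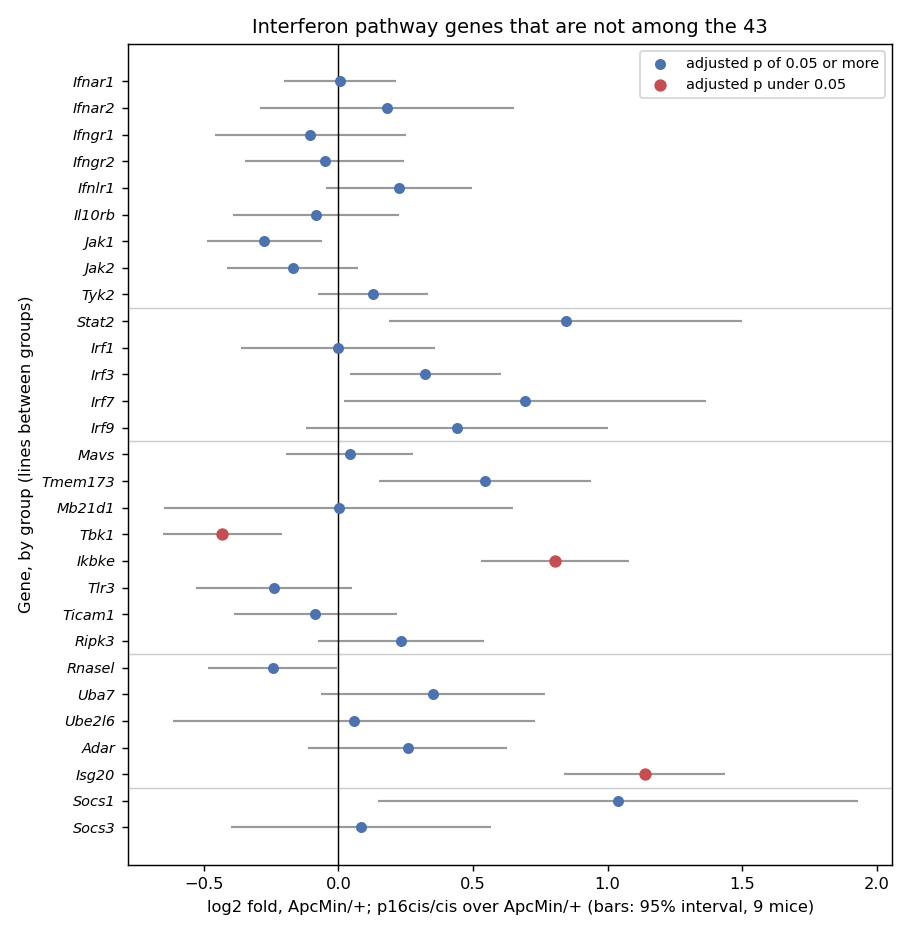
The log2 fold (p16cis/cis over ApcMin/+) of the 29 tested interferon pathway genes that are not among the 43, by group, with bars for the 95% interval over 9 mice. Isg20 (1.14), Ikbke (0.81) and Tbk1 (-0.43), in red, had an adjusted p under 0.05, and the receptors and kinases at the top lie within 0.28 of 0.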

How the data were processed

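Colonic mucosa RNA of 9 mice, each 1 separate animal and 1 replicate, was sequenced on the BGISEQ-500 platform. According to the study's methods the authors aligned reads with BOWTIE2, quantified genes with RSEM and used DESeq2, and the deposited signal values are counts after DESeq2's scaling to each mouse. Genome build, annotation, tool versions and strand setting are not given in the sources used here. Each value is a whole multiple of the value of 1 read (100% of positive values to within 0.01 reads), so whole reads were recovered. Of the 54146 identifiers, 52480 occurred with the same version in GENCODE M21 (GRCm38), 41 of the 43 genes among them, and coordinates came from it.

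The main test was limma's (version 3.58.1, R 4.3.3, trended variances), run on log2(normalized count + 1) over 14410 genes with genotype as the only term, and the recovered reads were also tested with edgeR (version 4.0.16) and DESeq2 (version 1.42.0). Other alternatives were TMM scaling, a pseudocount of 0.1, no filter or a value of 10 in every mouse, the replicate number as a block, fits with sex or the mitochondrial share added, fits on females alone, and fits without each mouse or without ApcMin/+ replicate 4 and p16cis/cis replicate 3 together (both end mice). The limma step was tested on simulated counts.

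The 43 genes, the pathway and marker lists and the tests were chosen with earlier results of these data known. Genes given in every mouse are those called, the most abundant of each role group by mean count, Bst2, and the 2 largest and 2 smallest log2 folds. Pathway genes named with values are those called and Stat2, Irf9, Irf7 and Ifng, and Isg15, Socs1 and the genes given by fold alone were named after their values were seen. One further gene of the pathway is not reported here. Shared 50-base windows were counted in GENCODE M21 transcripts.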

Additional observations from a re-analysis of the deposited data

Results flagged for a closer look

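Of 44 groups of 4 or 5 mice checked in 21 genes and in the mean deviation of the 43 genes on the log2 scale, 2 held a mouse farther from its group than Dixon's 95% limit, where chance gives about 1 in 20. Both were ApcMin/+ replicate 4. Oasl2 was 73.7 normalized counts in that mouse and 1221 to 2494 in the other ApcMin/+ mice. Ifit1bl1 was 292 there, against 1501 to 2728. In the same mouse the summed T cell markers were 63.6, and their part in these values was not tested.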

How the results depend on the processing

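Among the 43 genes, 3 were called higher and 0 lower, and all 3 had a fold over 2. Counts of 2 to 4 higher and 0 lower were also obtained with edgeR, DESeq2, TMM scaling, a pseudocount of 0.1 and other filters. With sex as a covariate 1 gene was called higher and 0 with a fold over 2, where 1437 of all genes were called. In females only the counts were 1 and 1, with 898 of all genes called. With the mitochondrial share as a covariate they were 0 and 0, where 0 of all genes tested were called by limma. With that covariate 0 of the 43 had an unadjusted p under 0.05. Without both end mice 1 gene was higher with a fold over 2 and 4 were lower, where 13.3% of all genes were lower. The choice of mice lowers the folds in that fit. The replicate numbers do not pair mice, with correlations of same-numbered mice of -0.18, 0.07, 0.05 and 0.14. Of the 4 p16cis/cis mice 2, replicates 3 and 4, correlated best with their own number. The replicate block, over 8 mice, gave 17 higher, 12 with a fold over 2, and 1 lower, where 2081 of all genes were called. Leaving out each mouse gave 1 to 4 higher, 0 to 2 with a fold over 2 and 0 to 1 lower. In these fits 1183 to 3488 of all genes were called. The single gene was Batf2 without ApcMin/+ replicate 1 or 3 or p16cis/cis replicate 2, 3 or 4. Without ApcMin/+ replicate 4, the fit with 3488 of all genes called, there were 4 higher and 1 lower (Samd9l). Of 20 alternatives Batf2 was called in 19, Mx1 in 10, Zbp1 in 8 and Bst2 in 5. Their adjusted p (limma, edgeR or DESeq2) ran, in that order, from 1.03e-06 to 0.852, 0.0175 to 0.974, 0.0109 to 0.863 and 0.0128 to 0.848. The 20 include the replicate block and the fits without 1 or both end mice, which were chosen on these genes. The tallies are therefore a description and not a measure of how firm the calls are. The 3 calls among other pathway genes became 6 with DESeq2, 0 with the mitochondrial share, 6 with the block, 5 without both end mice and 2 to 5 with a mouse left out (5 without ApcMin/+ replicate 4). Among the 15 genes given in every mouse by rule, directions turned in 4. Ifit1bl1 had a log2 fold of -0.043 with the mitochondrial share and -0.43 without both end mice, and Lgals3bp -0.11 without them. Ifih1 was at 0.065 and Trim25 at 0.031 with the block, and with a mouse left out they lay between -0.23 and 0.12 and between -0.15 and 0.031. The cause was not tested. Depth limits Ifit3b, Mx2, Usp18 and Ifi27l2a, each with 3 reads in their lowest mouse.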
